A study of Mus musculus with 9 samples.

Results

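The central amygdala is a nucleus of inhibitory neurons, many of which express Prkcd, the gene of protein kinase C delta. The cells described here are the Prkcd neurons in which Cartpt, Sst, Crh, Tac2, Nts and Nr2f2 were all below the level that counts as positive. They numbered 92 of the 829 cells sequenced. A gene was called positive in a cell at 1 or more counts per 10000 of that cell's gene counts, which equals 100 CPM, where CPM are counts scaled to a common library total. Inhibitory neurons were positive for Gad1, Gad2 or Slc32a1 and negative for Slc17a6 and Slc17a7, and 810 cells met this. Of these, 343 were positive for Prkcd, and 92 of the 343 were negative for the 6 other genes.

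The cells came from wild-type B6 mice; the central amygdala was microdissected from acute brain slices and dissociated, and cells were pooled over slices before sequencing. The mice carried no labelled allele and received no labelled treatment, their age was not given, and the 9 samples form 1 group of 85 to 95 cells each. The study therefore holds no treated group, and each comparison below sets cell classes side by side within samples. The 92 cells were set against the 467 inhibitory neurons negative for Prkcd, against the 189 of those that were also negative for the 6 genes, and against the 154 Prkcd neurons positive for Cartpt and negative for the other 5 genes.

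Protein kinase C delta is activated by diacylglycerol, which is made downstream of receptors coupled to phospholipase C. Prkcd neurons of the lateral part of the central amygdala release GABA and inhibit neighbouring neurons as well as cells outside the nucleus, and they are known from work on conditioned fear, pain and the suppression of feeding. Many central amygdala neurons also make peptides, which are cut from precursors such as proenkephalin (Penk), prodynorphin (Pdyn) and the CART prepropeptide (Cartpt). Parabrachial neurons that release calcitonin gene-related peptide innervate this region, and the receptor for that peptide is built from the Calcrl protein and an accessory protein, Ramp1.

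The members made up between 6.32% and 16.1% of the inhibitory neurons of a sample, with a mean of 11.5% ± 3.34 (SD, n = 9 samples). Among Prkcd neurons alone their share was 26.6% ± 5.26, with a range of 17.9% to 34.3%. Of the 343 Prkcd neurons, 154 were positive for Cartpt and none of the other 5 genes, 50 for Cartpt and at least 1 other, 27 for Sst, Crh, Tac2 or Nts without Cartpt, and 20 for Nr2f2 alone. Each of the 9 samples held members, from 6 cells in sample 4 to 15 in sample 3.

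**Figure D1:**
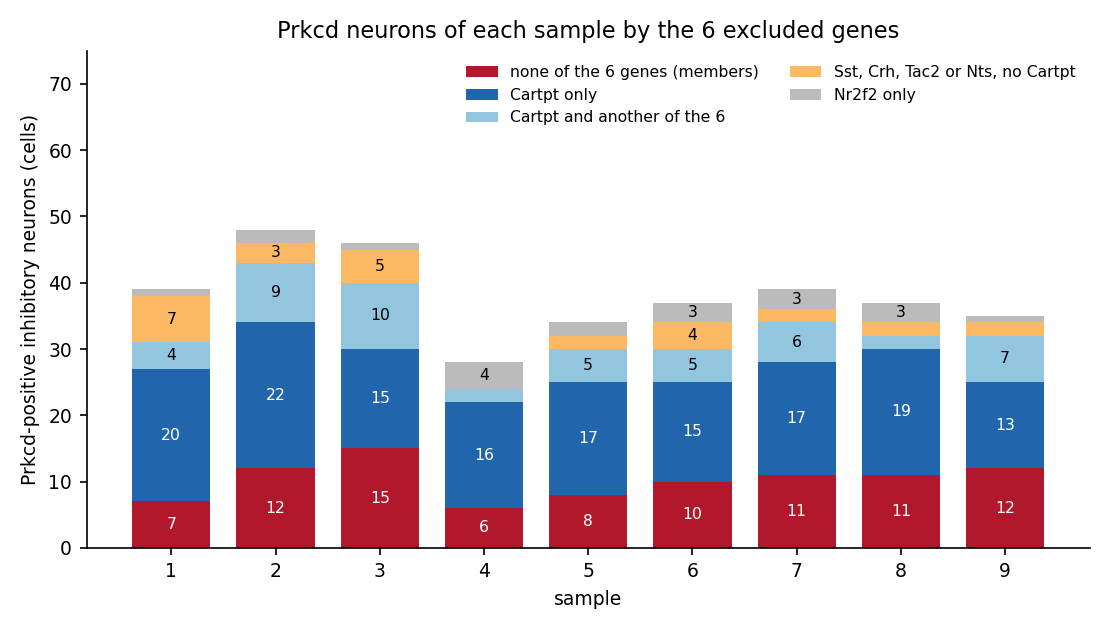
Number of Prkcd neurons (vertical axis, cells) in each of the 9 samples (horizontal axis), split by which of the 6 genes were positive; members are at the bottom of each bar. Every sample held between 6 and 15 members.

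The median depth was 119622 gene counts per member and 130131 per Prkcd-negative cell, and the difference of medians averaged -0.06 ± 0.14 on the log2 scale (SD, n = 9; exact two-sided sign-flip permutation test, p = 0.215). The shallowest member had 28684 gene counts, whereas 7 Prkcd-negative cells had under 20000. Sample totals ranged from 8522750 to 22730327 gene counts. Of 376 cell barcodes, 368 occurred in 2 or more samples, and no 2 cells held identical counts. The cell identifiers carry 3 animal numbers and 3 dates, each pair making 1 of the 9 samples, and whether an animal number marks 1 mouse on every date is not stated. The tests take the 9 samples as separate; if they come from 3 mice, the p-values are too small. Fits with counts summed to 3 animal numbers or to 3 dates, added after the data were seen, are given with each comparison.

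The values that chose the members are given as a description. Summed over the members of a sample, Prkcd had a lowest, median and highest level of 406, 596 and 889 CPM, against 3.80, 7.29 and 13.1 CPM in Prkcd-negative neurons and 580.0, 882 and 1226 CPM in the Cartpt class. The member with the least Prkcd had 105 CPM, and the next were at 107 and 109 CPM; the cells just outside were at 99.3, 98.2 and 98.0 CPM. For the highest of the 6 excluded genes in a cell, the members nearest the threshold had 93.1, 88.4 and 88.3 CPM, the cells just outside had 105, 107 and 115 CPM, and 21 members had no count of any of the 6. Sst averaged 8.73 CPM in members and 1035 CPM in Prkcd-negative neurons, so the members were low in it rather than empty of it.

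The 3 genes that came with the name of this class are also given without a test. Aplp2 and Gng7 were higher than in Prkcd-negative neurons in 9 of 9 samples, and Calcrl was present in a minority of cells. Aplp2, a gene of the amyloid precursor family, had 741, 982 and 1298 CPM (lowest, median, highest of 9 samples) in members, against 585, 671 and 729.9 CPM in Prkcd-negative neurons, with no overlap. Gng7, a G protein gamma subunit of cyclic AMP signalling, had 105, 138 and 264 CPM in members, against 45.7, 58.0 and 106 CPM. The Calcrl receptor gene was positive in 12 of 92 members, or 13.0%, against 8 of 467 Prkcd-negative neurons, or 1.71%, and 67 members had no Calcrl count. Over the 9 samples these shares were 12.8% ± 10.3 and 1.81% ± 2.30 (SD). The summed Calcrl level was higher in members in 7 samples and lower in 2. The Cartpt class had 635, 785 and 1136 CPM of Aplp2 and 63.5, 95.9 and 138 CPM of Gng7, and both overlapped with members. Members were higher in 8 of 9 samples for Aplp2 and in 9 of 9 for Gng7. Calcrl was positive in 6 of 154 cells of the Cartpt class, or 3.90%.

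The cells were not without neuropeptide genes. Of 92 members, 83 were positive for at least 1 of 14 peptide precursor genes outside the 6, and 9 for none. Penk, the enkephalin precursor, accounted for 78 of them. Gal (galanin) and Pnoc (nociceptin precursor) were positive in 4 members each, Cck in 3, Pdyn and Tac1 in 2 each and Nmb in 1. Scg2, a secretogranin of dense-core vesicles, was positive in all 92 members. The name for this class as free of other peptides therefore does not hold in these data, and the cells are called by their rule below.

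Against all Prkcd-negative inhibitory neurons, the members had more enkephalin precursor RNA and less of 5 other peptide precursors, more of several immediate early genes, and less of Gnas, neurofilament genes and several synaptic vesicle genes. Counts were summed per sample and class, fitted with edgeR's quasi-likelihood test with the sample as a block, and adjusted by the Benjamini-Hochberg method over 10417 genes. At an adjusted p under 0.05, 201 genes (1.93%) were higher and 463 (4.44%) lower in members, together 6.37% of those tested. The median log2 fold change over the genes tested was -0.26. Of the called genes, 8 belong to the rule itself, and 430 moved the same way in all 9 samples. Summed to 3 animal numbers, 71 genes were higher and 81 lower, and 26 of the 60 named genes that had passed still did, each with its sign kept; summed to 3 dates, the numbers were 92, 94 and 25. Penk, Eepd1, Ezr, Sox5, Pdyn, Nefl and Itpr1 passed in both fits. Of these, Ezr, Sox5 and Itpr1 did not pass by edgeR with equal cell numbers per class (adjusted p = 0.0660, 0.108 and 0.147).

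Penk had 2627, 3820.0 and 5390.0 CPM (lowest, median and highest of 9 samples) in members, against 1086, 1741 and 2137 CPM in Prkcd-negative neurons. The 2 classes did not overlap. The log2 fold change was 1.20 ± 0.16 (SE; adjusted p = 0.000525), with members higher in 9 of 9 samples. Without cells positive for Mbp, a myelin gene, which left 62 members in 7 samples, it was 0.88 and no longer passed (adjusted p = 0.120).

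Prodynorphin ran the other way. Pdyn had 0.865, 2.69 and 32.5 CPM in members, against 154, 487 and 719 CPM in Prkcd-negative neurons, again with no overlap. Its log2 fold change was -6.29 ± 0.56 (adjusted p = 1.12e-05). Of 10 neuropeptide genes tested outside the rule, Penk was the 1 that rose, and 5 fell (Npy, Pdyn, Tac1, Cck and Pnoc), with a list median of -2.52. The Prkcd-negative neurons included cells positive for the 6 genes, which the rule removed from members. Peptides made in such cells can therefore be lower in members through the rule. Against neurons lacking the 6 genes, described below, Cck and Pdyn were the peptide genes that fell, of 8 tested. Tac1, the substance P precursor, had 0, 0.921 and 17.5 CPM in members and 12.7, 111 and 228 CPM in Prkcd-negative neurons. The Npy value rests on few cells: 12 of 467 Prkcd-negative neurons were positive, and 1 of them held 82.5% of the class's Npy counts.

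The genes with the largest higher fold changes in members, apart from Prkcd, included Bcan, Epb4.1l4a, Ezr, Eepd1, Tcf12, Sox5, Syt6, Sox2, Rreb1, Evc2 and Mcm6. Ezr encodes ezrin, which ties the actin cytoskeleton to the cell membrane. It had 25, 106 and 163 CPM in members, against 2.39, 10.8 and 20.7 CPM in Prkcd-negative neurons, without overlap (log2 fold change 3.22 ± 0.45, adjusted p = 0.000648). Without Mbp-positive cells Ezr did not pass by edgeR (2.87, adjusted p = 0.0832). Eepd1, a nuclease family gene, had 202, 296 and 516 CPM in members, against 42.3, 48.4 and 112 CPM, also without overlap (2.36 ± 0.18, adjusted p = 1.75e-06). Among these were the transcription factor genes Tcf12, Sox5, Sox2 and Rreb1. Sox5 had 53.1, 154 and 170.4 CPM in members and 16.6, 28.5 and 56.2 CPM in Prkcd-negative neurons (2.21 ± 0.30, adjusted p = 0.000525). Its lowest member sample fell within the range of the Prkcd-negative neurons, and members were higher in 9 of 9 samples. Bcan, the matrix proteoglycan brevican, was carried by few cells (7 positive members), and it no longer passed without sample 2, 4, 6, 7, 8 or 9 (adjusted p = 0.0583 to 0.0866). Syt6 no longer passed without sample 2, 3 or 9 (0.0542 to 0.0591), and Mcm6 without sample 1, 2, 3, 4 or 9 (0.0502 to 0.0627).

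The genes with the largest lower fold changes were nearly absent from members and were positive in a minority of Prkcd-negative neurons. The filter on low counts admitted such genes through the Prkcd-negative neurons, where they were high. Members were fewer cells, so genes carried by few members entered less easily. The split of 201 higher and 463 lower genes can therefore depend on cell numbers. With equal cell numbers, 74 were higher and 90 lower, and 37 of the 60 named genes could be fitted. Gpx3, a glutathione peroxidase, had 1 count over the 92 members and 2614 counts over Prkcd-negative neurons, a ratio of 462 with a 95% counting interval of 82.8 to 18249. It was positive in 49 of the 467 Prkcd-negative neurons. The orphan receptor Gpr6, the chemokine Cxcl14 and the synaptic adhesion gene Igsf21 had 1 count each in members, against 1831, 1715 and 1844 counts. Cntn4 and Sema6d, genes of cell adhesion and axon guidance, had 2 counts each in members, against 1720 and 1807 counts. The dopamine receptor gene Drd1a and the neurokinin B receptor gene Tacr3 had 0 counts in members. With 3 counts over all members as the floor, they were at least 65.6-fold and at least 61.0-fold lower. A share of 0 of 92 members still allows up to 3.26% of cells to be positive.

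**Figure D2:**
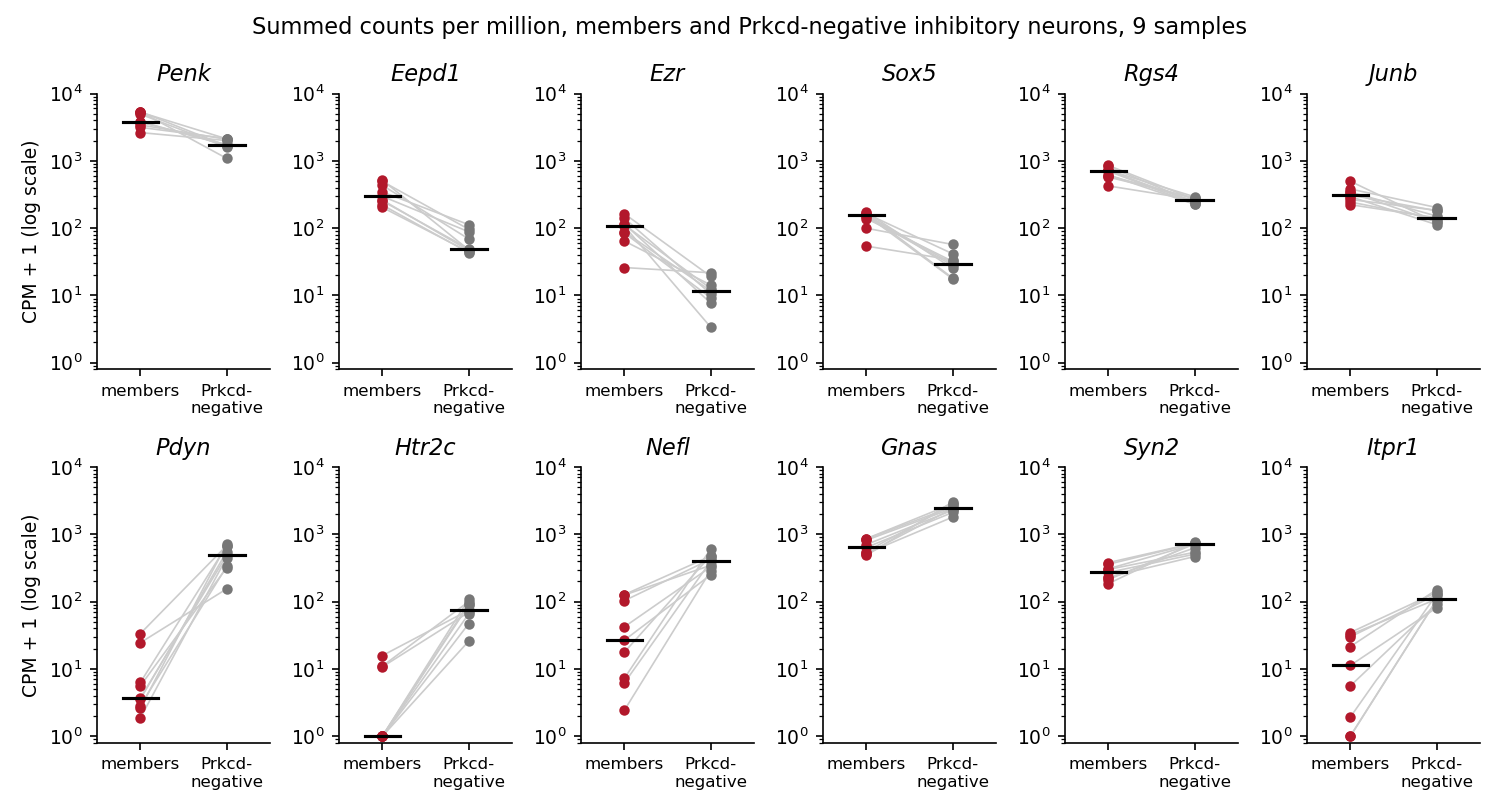
Summed level (CPM + 1, log axis) of 12 genes in members and in Prkcd-negative inhibitory neurons; each point is 1 of 9 samples, lines join the classes of 1 sample and bars mark medians. Penk, Eepd1, Ezr and Rgs4 lay higher in members in all 9 samples, and Pdyn, Nefl, Gnas and Syn2 lower in all 9.

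Among 33 genes of cyclic AMP signalling outside the rule, 4 rose and 6 fell in members, with a list median of -0.24 beside -0.26 for all genes tested. The share called was 30.3%, beside 6.37% of all genes tested. Gnas encodes the stimulatory G protein alpha subunit, which turns on adenylyl cyclase. It had 484, 637 and 859 CPM in members, against 1800.0, 2427 and 3024 CPM in Prkcd-negative neurons. The highest member sample was below the lowest Prkcd-negative one, and the log2 fold change was -1.93 ± 0.11 (adjusted p = 9.5e-08). Rgs4, which shortens signalling by G protein alpha subunits, went the other way, at 423, 703 and 853 CPM in members, against 225, 264 and 291 CPM (1.36 ± 0.12, adjusted p = 8.2e-06), without overlap. The other 3 that rose were Ppp1r1b (DARPP-32, a phosphatase inhibitor), the phosphodiesterase gene Pde7b and Rgs14, and the others that fell were Rapgef3, Pde4b, Gnai1, Pde1b and Prkar1b. Gnas and Rgs4 were picked from the list after their values were seen. Rapgef3 no longer passed without sample 1, 2, 3, 5, 8 or 9 (adjusted p = 0.0503 to 0.0560).

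Of 14 immediate early genes tested, which neurons switch on after activity or stress, 4 rose in members and 0 fell. The share called was 28.6%, beside 6.37% of all genes tested. The edgeR test gave a list median of 0.17 beside -0.26. Junb had 222, 309 and 496 CPM in members, against 112, 142 and 201 CPM in Prkcd-negative neurons, with no overlap (1.08 ± 0.15, adjusted p = 0.000711). The other 3 were Npas4 (1.42 ± 0.32, adjusted p = 0.0158), Fos (1.41 ± 0.36, adjusted p = 0.0324) and Egr1 (0.72 ± 0.16, adjusted p = 0.0138). Fos no longer passed without sample 1, 2, 5, 7, 8 or 9 (0.0544 to 0.0796), and Npas4 without sample 6 (0.0535).

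Genes of the neuronal cytoskeleton and of transmitter release were mostly lower or did not pass. Of 16 cytoskeletal and general neuronal genes, 0 rose and 6 fell: Nefm, Nefl, Stmn2, Tubb3, Stmn3 and Snap25 (list median -0.47). The neurofilament light chain Nefl had 1.43, 25.7 and 126 CPM in members, against 248, 395 and 606 CPM in Prkcd-negative neurons (-3.64 ± 0.56, adjusted p = 0.00125), without overlap. Of 21 release genes, Syt7 and Cplx2 rose and 8 fell, among them the synaptic vesicle genes Syn1, Syn2, Sv2a, Sv2c and Syt4 (list median -0.82). Syn2 had 184, 269.9 and 378 CPM in members, against 467, 712 and 758 CPM, again without overlap (-1.26 ± 0.13, adjusted p = 5.67e-05). Sv2c no longer passed without sample 1, 2, 4, 5, 6, 7 or 8 (0.0585 to 0.0725). Of 60 axon guidance and adhesion genes, 1 rose (Cdh9) and 16 fell, with a list median of -0.83. The called shares of the cytoskeletal, release and axon guidance lists were 37.5%, 47.6% and 28.3%, beside 6.37% of all genes tested. As with the peptides, genes of cells that the rule removed from members can be lower through the rule. Against neurons lacking the 6 genes, 0 of 52 axon guidance and adhesion genes rose and 5 fell.

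Of the receptor and channel lists, 14.3% to 22.2% of the genes were called, beside 6.37% of all genes tested. Of 18 receptor and enzyme genes for monoamines, acetylcholine, adenosine and cannabinoids, the cannabinoid receptor gene Cnr1 rose (1.39 ± 0.23, adjusted p = 0.00266) and Drd1a, Htr2c and Adra2c fell. Htr2c, a serotonin receptor, had 0, 0 and 14.8 CPM in members, against 24.8, 73.5 and 107 CPM in Prkcd-negative neurons (-5.50 ± 0.91, adjusted p = 0.00226), and the classes did not overlap. Summed to 3 animal numbers it did not pass (adjusted p = 0.104). Of 15 neuropeptide receptor genes, 0 rose and 3 fell (Tacr3, Mc4r and the nociceptin receptor Oprl1). Of 21 glutamate receptor genes, 0 rose and 3 fell (Grm8, Grin3a and Gria3), and of 20 genes for GABA and glycine receptors and chloride transport, 0 rose and Glra2, Gabrq and Glrb fell. Gabrq no longer passed without sample 1, 2, 3, 4, 5, 7 or 8 (adjusted p = 0.0568 to 0.0719). Among 34 potassium channel genes Kcnq5 and Kcnip2 rose and Kcng1, Kcnh7 and Kcnc4 fell. Among 34 genes for sodium, calcium, HCN and TRP channels Cacna2d3 rose and 5 fell, including the T-type calcium channels Cacna1g and Cacna1i. Such genes can also be lower through the rule. Against neurons lacking the 6 genes, 1 of 30 genes of this last list rose and 1 fell. Of 12 neuropeptide receptor genes, 0 rose and 1 fell there.

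Within protein kinase C and diacylglycerol signalling, outside Prkcd, 2 of 20 genes rose (Dgkg and Prkce) and 1 fell. The gene that fell was Itpr1, the inositol trisphosphate receptor that releases calcium from internal stores. It had 0, 10.3 and 33.7 CPM in members, against 80.2, 108 and 149.6 CPM in Prkcd-negative neurons, without overlap (-3.67 ± 0.67, adjusted p = 0.00462). In the Cartpt class Itpr1 was likewise low, at 0.890 to 13.8 CPM. Dgkg no longer passed without sample 1, 2, 4, 5, 8 or 9 (0.0614 to 0.0914). Ramp1, the partner of Calcrl, had 193, 267 and 591 CPM in members and 132, 181 and 217 CPM in Prkcd-negative neurons and did not pass (0.70 ± 0.21, adjusted p = 0.0628). Ramp2 was the 1 of 4 tested CGRP receptor genes that fell, and it no longer passed without sample 1, 2, 5, 6, 7, 8 or 9 (0.0690 to 0.0846).

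Of 26 transcription factor genes of forebrain inhibitory neurons, Sox5 rose and 8 fell: Tox, Meis1, Tshz1, Npas3, Rora, Foxp1, Tshz2 and Meis2. The share called was 34.6%, beside 6.37% of all genes tested. Here too the rule can lower genes of the removed cells. Against neurons lacking the 6 genes, 2 of 20 such genes rose and 1 fell. Foxp1 had 3.68, 23.4 and 106 CPM in members and 36.1, 100.3 and 156 CPM in Prkcd-negative neurons (-1.81 ± 0.45, adjusted p = 0.0276), and it no longer passed without sample 3, 5, 6, 7, 8 or 9 (0.0521 to 0.0731). Isl1 did not pass (-4.06 ± 1.26, adjusted p = 0.0740). Of 30 oxidative phosphorylation genes, 0 rose and 4 fell, or 13.3% beside 6.37% of all genes called. The list median of -0.08 was above the -0.26 of all genes tested, so the list as a whole was not lower than other genes. Of 14 genes of the amyloid precursor family and its processing other than Aplp2, App and Aplp1 fell. Ndufc1, 1 of the 4 oxidative phosphorylation genes that fell, no longer passed with any single sample left out (0.0566 to 0.106). Ndufb5 no longer passed without sample 1, 2, 3, 5, 6 or 7 (0.0531 to 0.0852), and Aplp1 without sample 2, 3, 4, 5, 6, 8 or 9 (0.0543 to 0.0857).

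Some markers of other cells moved with these classes. Astrocyte marker counts summed to 3.67 to 123 CPM in members over the 9 samples, against 148 to 466 CPM in Prkcd-negative neurons, with 4 of 8 markers detected in members and Aqp4, Gfap, Slc1a3 and Gja1 at 0. Interneuron markers summed to 7.57 to 403 CPM in members, with 8 of 8 detected, against 118 to 2319 CPM. The highest of them in members was Chat, at 46.5, 269 and 116 CPM in samples 3, 4 and 6 and 0 in the others. Isl1 in members was also highest in samples 3, 4 and 6 (44.3, 46.1 and 70.6 CPM), and a link was not tested. Endothelial and mural markers summed to 655 to 1011 CPM in members, against 515 to 741 CPM, with 3 of 7 detected in members and Cldn5, Pecam1, Rgs5 and Vtn at 0. Bsg and Itm2a were the highest of these markers in both classes, and 0 of the 2 tested passed. Oligodendrocyte markers summed to 60.0 to 293 CPM in members, with 6 of 9 detected and Mog, Ermn and Opalin at 0, against 68.0 to 5029 CPM; the 5029 CPM belongs to sample 5, and 23 of 92 members were positive for Mbp. Markers of striatal projection neurons and intercalated cells, Penk among them, summed to 3287 to 6820 CPM in members, with 12 of 13 detected and Drd1a at 0, against 1808 to 2919 CPM. Of 12 such markers tested, Penk and Ppp1r1b rose and Drd1a, Gpr6, Erbb4 and Tshz1 fell. The part of these markers in the results was not tested, beyond leaving out Mbp-positive cells and sample 5. In excitatory neuron markers the members had 1 of 8 detected, and in microglial markers 1 of 6.

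Against the inhibitory neurons that also lacked the 6 genes, only Prkcd differed by the rule, and Penk, Junb, Rgs4 and Eepd1 were again higher and Gnas, Syn2 and the neurofilament genes again lower. These neurons are a subset of the Prkcd-negative ones and the members are the same cells, so the 2 comparisons are not independent. By edgeR's quasi-likelihood test 131 of 9449 genes (1.39%) were higher and 199 (2.11%) lower in members, together 3.49%, and 223 of these moved the same way in all 9 samples. The median log2 fold change was -0.15. Summed to 3 animal numbers, 51 genes were higher and 46 lower, and 23 of 48 named genes that had passed still did; summed to 3 dates, the numbers were 50, 46 and 16. In these neurons oligodendrocyte markers summed to 47.2 to 127 CPM in 8 samples and to 14305 CPM in sample 5, beside 60.0 to 293 CPM in members. Without sample 5, 102 genes were higher and 148 lower. Astrocyte markers summed to 3.67 to 123 CPM in members, against 80.1 to 451 CPM in these neurons, with Aqp4, Aldh1l1 and Gja1 at 0; 1 of them, Aldoc, fell in members (-4.35 ± 0.66, adjusted p = 0.00215). The part of the astrocyte markers in the results was not tested.

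Gnas had 484, 637 and 859 CPM in members, against 1367, 1846 and 2326 CPM in neurons without Prkcd and the 6 genes, without overlap (-1.48 ± 0.12, adjusted p = 6.31e-06). Eepd1 had 202, 296 and 516 CPM in members, against 7.97, 59.3 and 86.8 CPM (3.0 ± 0.30, adjusted p = 5.85e-05), also without overlap. Penk had 1364, 2366 and 3608 CPM in the neurons without Prkcd and the 6 genes, so that the classes overlapped. Its log2 fold change was 0.81 ± 0.20 (adjusted p = 0.0354), with members higher in 8 of 9 samples. It no longer passed without sample 1, 2, 3, 4, 5, 8 or 9 (adjusted p = 0.0558 to 0.0839), without Mbp-positive cells (0.51, adjusted p = 0.628), with equal cell numbers (0.52, adjusted p = 0.283), with at least 10 cells per class (0.83, adjusted p = 0.172) or summed to 3 animal numbers (0.79, adjusted p = 0.139).

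The largest higher changes in this comparison were in Sostdc1, a secreted antagonist of BMP and Wnt signalling, the proprotein convertase Pcsk5, Plekhh2, Epb4.1l4a, Eepd1, Fam40b, Tcf12 and the ETS factor Etv5. Pcsk5 had 7.20, 32.9 and 83.4 CPM in members, against 0, 0.629 and 6.84 CPM, without overlap (4.57 ± 0.95, adjusted p = 0.0132). Etv5 had 22.2, 51.5 and 77.4 CPM in members, against 1.59, 6.99 and 14.3 CPM, without overlap (2.81 ± 0.48, adjusted p = 0.00393). Plekhh2 no longer passed without sample 2, 5, 6, 8 or 9 (0.0518 to 0.0711). The largest lower changes included those of Crtac1, Wls, Rgs8, Spon1, Gpr101, Fign and Gucy1a3. The orphan receptor gene Gpr101 had 0, 0 and 55.0 CPM in members, against 65.2, 111 and 177 CPM, and the classes did not overlap (-6.27 ± 1.04, adjusted p = 0.00315). Gucy1a3, a subunit of the nitric oxide receptor, had 0, 0 and 18.8 CPM in members, against 15.9, 123 and 137 CPM (-5.95 ± 0.92, adjusted p = 0.00232). Summed to 3 animal numbers and to 3 dates, edgeR no longer called Pcsk5 (adjusted p = 0.0850 and 0.0794), Gpr101 (0.0515 and 0.0733) or Gucy1a3 (0.0660 and 0.0933). Etv5 no longer passed without Mbp-positive cells (0.123) or with equal cell numbers (0.0508).

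Immediate early genes rose in part here too. Of 10 such genes tested, Npas4, Junb and Egr1 rose and 0 fell (list median 0.95 beside -0.15). Junb had 105, 146 and 202 CPM in the neurons without Prkcd and the 6 genes, all below the lowest member sample at 222 CPM (1.05 ± 0.17, adjusted p = 0.00266). Summed to 3 dates, Junb did not pass by edgeR (adjusted p = 0.0508). Of 16 cytoskeletal and general neuronal genes, Nefm, Nefl, Stmn2, Tubb3, Stmn3 and Snap25 fell here too, and of 20 release genes 0 rose and 4 fell, Syn2 among them (-1.25 ± 0.13, adjusted p = 7.54e-05). Of 8 neuropeptide genes Penk rose and Cck and Pdyn fell. Pdyn had 18.4, 62.5 and 277 CPM in the neurons without Prkcd and the 6 genes. The classes overlapped, and members were lower in 8 of 9 samples (-3.64 ± 0.76, adjusted p = 0.0135 by edgeR). Pdyn no longer passed without Mbp-positive cells (0.296), with equal cell numbers (0.308), with at least 10 cells per class (0.0616) or summed to 3 dates (0.0508). Of 32 cyclic AMP genes 4 rose, and Pde4b, Gnas and Rgs7bp fell. Of 20 transcription factor genes, Sox5 and Bcl11b rose and Foxp1 fell (-2.49 ± 0.42, adjusted p = 0.00372). Foxp1 no longer passed by edgeR without Mbp-positive cells (adjusted p = 0.119) or summed to 3 dates (0.0595).

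**Figure D3:**
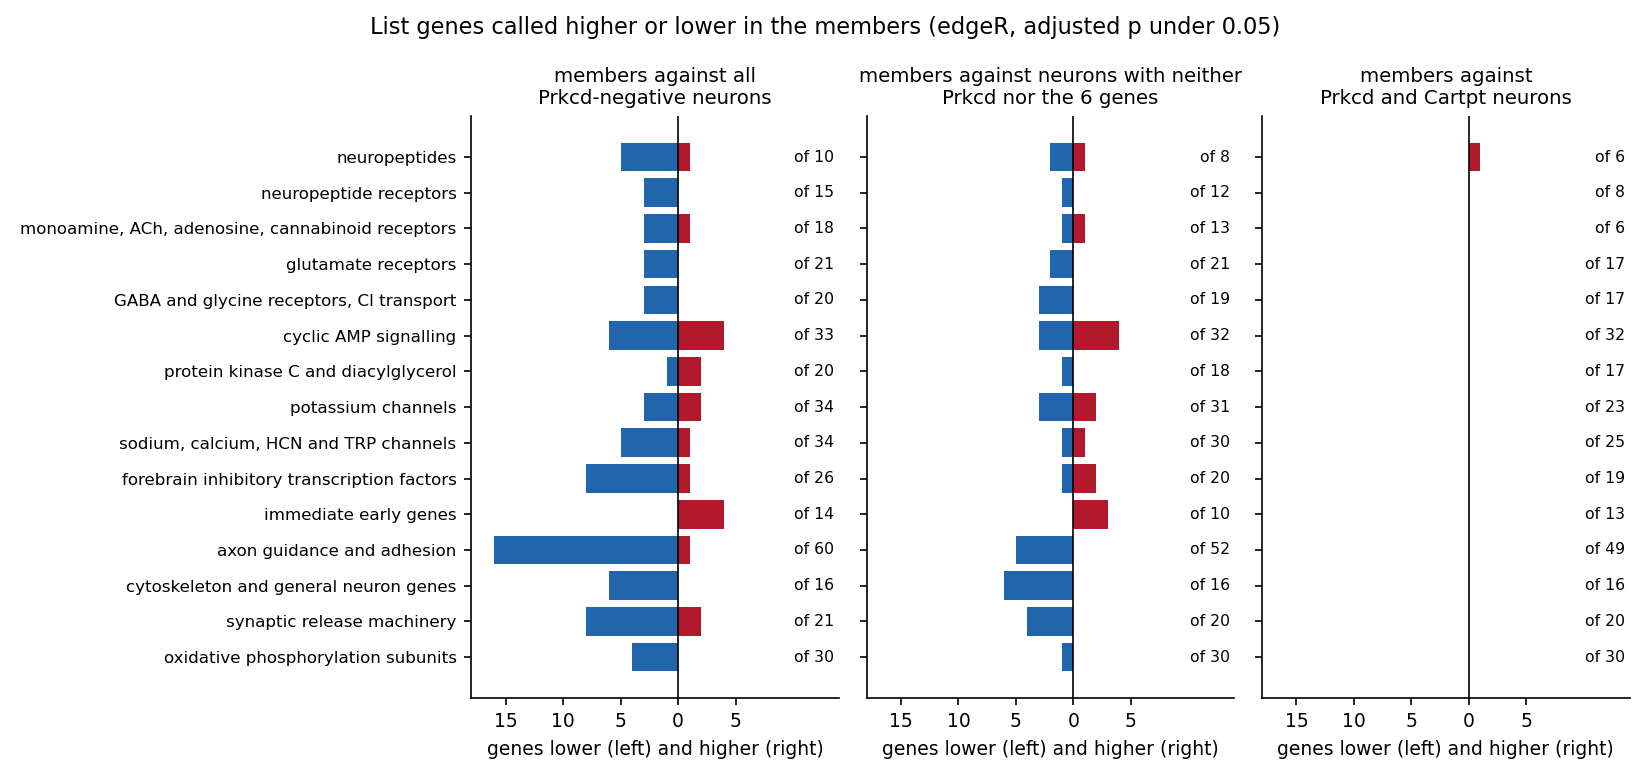
Number of genes lower (left of 0) and higher (right of 0) in members at an adjusted p under 0.05 for each gene list, in the comparisons with Prkcd-negative neurons, with neurons lacking Prkcd and the 6 genes, and with the Cartpt class; the number tested is printed beside each bar. Axon guidance and adhesion had 16 of 60 genes lower against Prkcd-negative neurons and 5 of 52 against neurons lacking Prkcd and the 6 genes. Immediate early genes had 4 of 14 higher against Prkcd-negative neurons.

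Against Prkcd neurons that express Cartpt, few genes differed. Members had more Penk, more of the calcium sensor gene Hpca (hippocalcin) and more of the ubiquitin ligase gene Herc1, and less Ezr, Bpgm, Cst3 and Ncdn. By edgeR's quasi-likelihood test 4 of 9096 genes (0.044%) were higher and 9 (0.0989%) lower, together 0.143%. Of the 9 lower genes, 2 were Cartpt, which the rule fixes, and Prkcd, on which both classes were chosen. At an unadjusted p under 0.05 the number was 653, and the median log2 fold change was -0.08. The members are the same cells as in the other comparisons. Summed to 3 animal numbers, 0 genes were higher and 1 lower by edgeR (308 and 415 at an unadjusted p under 0.05), and 0 of the 8 named genes still passed, each with its sign kept; summed to 3 dates, 2 were higher and 4 lower, and 5 of the 8 passed.

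Hpca had 399.8, 758 and 883 CPM in members, against 214, 234 and 456 CPM in the Cartpt class. Members were higher in 9 of 9 samples, with a log2 fold change of 1.24 ± 0.13 (adjusted p = 0.000361). Its level in Prkcd-negative neurons was 588, 863 and 1058 CPM, beside which the member value did not pass (-0.36 ± 0.16, adjusted p = 0.229). Penk had 1147, 2027 and 3266 CPM in the Cartpt class, and the member log2 fold change was 1.05 ± 0.16 (adjusted p = 0.0140, higher in 9 of 9 samples). It no longer passed without sample 7 (adjusted p = 0.0597) or sample 8 (0.0780), or with at least 10 cells per class (0.95, adjusted p = 0.139). Herc1 had 271, 330.5 and 385 CPM in members, against 130.4, 190.4 and 307 CPM (0.80 ± 0.14, adjusted p = 0.0350), and no longer passed without sample 1, 4, 5, 6, 7, 8 or 9 (0.0662 to 0.111). The fourth was 6330403K07Rik, at 874, 1136 and 1398 CPM in members and 678, 767 and 988 CPM in the Cartpt class (0.48 ± 0.08, adjusted p = 0.0163), which no longer passed without sample 1, 2, 3, 6 or 7 (0.0611 to 0.0739).

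The genes lower than in the Cartpt class were in several cases higher than in Prkcd-negative neurons. Bpgm, which makes bisphosphoglycerate, had 155, 229 and 345 CPM in members, against 370.3, 455 and 589 CPM in the Cartpt class and 67.2, 103 and 139.8 CPM in Prkcd-negative neurons. The 3 classes did not overlap, and the log2 fold changes were -1.06 ± 0.13 (adjusted p = 0.00280) and 1.11 ± 0.13 (adjusted p = 0.000191). Ncdn (neurochondrin) had 1977, 2432 and 2738 CPM in members, against 2834, 3392 and 3862 CPM in the Cartpt class and 722, 826 and 903 CPM in Prkcd-negative neurons (-0.48 ± 0.07, adjusted p = 0.0122; 1.54 ± 0.07, adjusted p = 3.87e-09). It too lay between them without overlap, and the difference from the Cartpt class no longer passed without sample 7 (0.0597). The protease inhibitor gene Cst3 (cystatin C) had 829, 1082 and 1452 CPM in members, against 1544, 1763 and 2209.6 CPM in the Cartpt class (-0.68 ± 0.09, adjusted p = 0.00280). Ezr had 25, 106 and 163 CPM in members, against 119, 270.1 and 452 CPM in the Cartpt class (-1.56 ± 0.21, adjusted p = 0.00335). Outside the rule for named genes, and chosen after their values were seen, the other 3 lower genes were Resp18, Nnat and Fkbp1a, each lower in 8 of 9 samples. The values against Prkcd-negative neurons of Bpgm, Ncdn and Cst3 were likewise looked up after these calls.

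**Figure D4:**
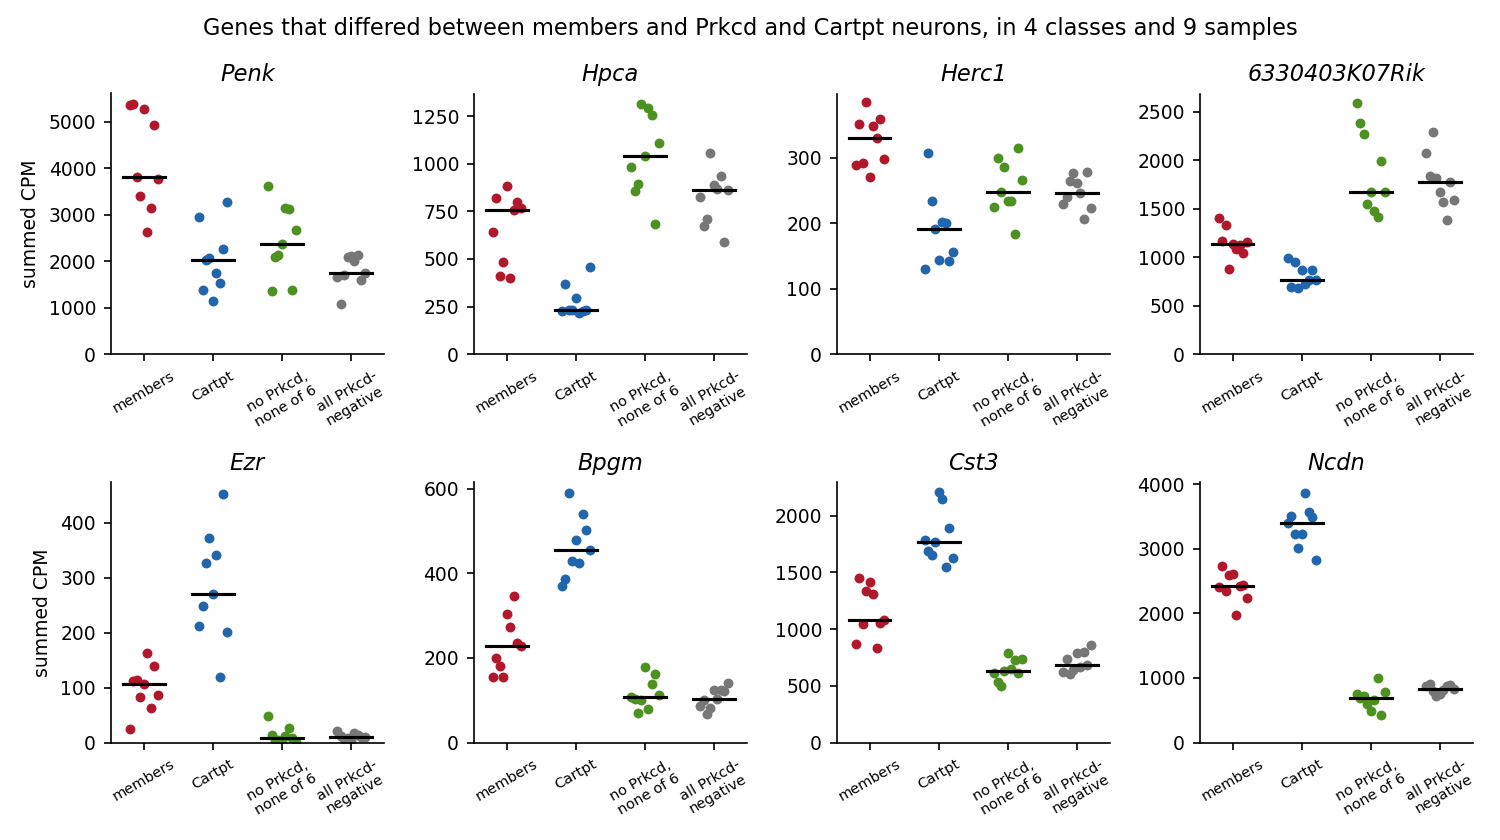
Summed level (CPM) of 8 genes in members, the Cartpt class, neurons without Prkcd and the 6 genes, and all Prkcd-negative inhibitory neurons; each point is 1 of 9 samples and bars mark medians. Bpgm and Ncdn in members lay between the Cartpt class and the Prkcd-negative neurons, whereas Hpca in members was at 399.8 to 883 CPM, against 214 to 456 CPM in the Cartpt class.

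Among the gene lists, Penk was the 1 of 6 neuropeptide genes that passed against the Cartpt class. Of 13 immediate early genes 0 passed either way, and likewise 0 of 32 cyclic AMP genes, 0 of 16 cytoskeletal genes and 0 of 19 transcription factor genes in the edgeR test. Of all genes tested 0.143% were called, so 0 calls in lists of these sizes do not set the lists apart from other genes. The list medians were -0.47, 0.07, 0.10 and -0.03, beside -0.08 for all genes tested. Gnas had 407, 497 and 696 CPM in the Cartpt class (0.34 ± 0.12, adjusted p = 0.482), and Junb 250.2, 376 and 469.9 CPM (-0.24 ± 0.14, adjusted p = 0.816). Gria3, an AMPA receptor subunit, had 117, 134 and 295 CPM in members and 13.0, 59.6 and 96.4 CPM in the Cartpt class, without overlap, and did not pass (1.46 ± 0.28, adjusted p = 0.0628). Tac1 had 14.6, 23.9 and 110.0 CPM in the Cartpt class and did not pass either (-3.86 ± 0.77, adjusted p = 0.0726). Without Mbp-positive cells, which left 62 members against 79 cells in 7 samples, 0 of the 8 named genes that had passed still did, with every sign kept; Hpca was then at 1.11 (adjusted p = 0.217) and Cst3 at -0.72 (adjusted p = 0.0654).

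Counted as positive cells, more members than Prkcd-negative neurons carried Sox5 and Cnr1 and fewer carried Pdyn, Htr2c and Drd1a. The Cartpt class was alike in these genes, so they do not set members apart from it. Over all cells, 51.9% of the Cartpt class and 52.2% of members were positive for Sox5, and 1.30% and 2.17% for Pdyn. In samples of the Cartpt class, Cnr1 was at 54.4 to 189 CPM, Htr2c at 0 to 6.23 and Drd1a at 0 to 0.448. Shares of positive cells were compared for 25 genes by an exact two-sided sign-flip permutation test over the 9 samples, in which the smallest p is 0.00391, with Benjamini-Hochberg adjustment over the 25. Over 3 animal numbers such a test could not reach 0.05. More members were positive for Sox5, at 51.2% ± 13.5 of members and 10.5% ± 2.68 of Prkcd-negative neurons (adjusted p = 0.0195, exact test). More were also positive for Cnr1, at 42.2% ± 12.9 and 18.3% ± 3.20 (adjusted p = 0.0244, exact test). Fewer were positive for 8 genes, namely Pdyn, Htr2c, Tox, Drd1a, Cacna1i, Tshz1, Isl1 and Tshz2. Htr2c was positive in 0 members, against 25.1% ± 7.09 of Prkcd-negative neurons (adjusted p = 0.0195, exact test). Isl1 was positive in 3.70% ± 6.11 of members and 13.7% ± 4.66 of Prkcd-negative neurons (adjusted p = 0.0326, exact test), a call lost without sample 1, 2, 5, 6, 7, 8 or 9 (0.0533 to 0.0651). Tshz2 was positive in 25.5% ± 10.2 of members and 40.9% ± 9.02 of Prkcd-negative neurons (adjusted p = 0.0488, exact test), a call lost without any 1 of samples 1 to 8 (0.0533 to 0.0977). Penk was positive in 83.7% ± 10.1 of members and 75.4% ± 7.37 of Prkcd-negative neurons, which did not pass (adjusted p = 0.110, exact test), although its summed level did.

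**Figure D5:**
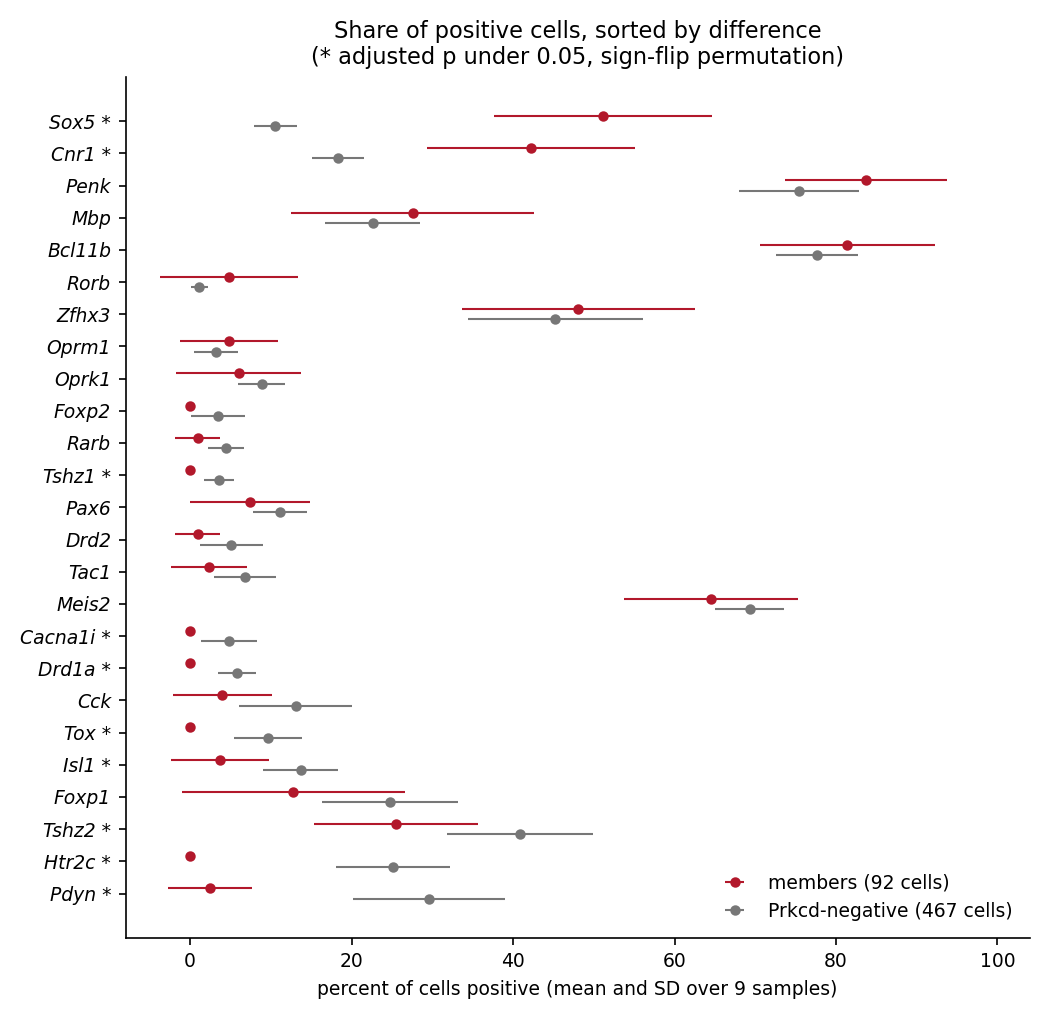
Share of cells positive (percent, mean and SD over 9 samples) for 25 genes in members and in Prkcd-negative inhibitory neurons; asterisks mark an adjusted p under 0.05 in the exact sign-flip permutation test. Sox5 and Cnr1 were positive in more members, and Pdyn and Htr2c in fewer.

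The members also varied among themselves. Of genes averaging at least 50 CPM over the members, the one with the widest spread between cells was Penk, with an SD of 3.04 on the scale log2(CPM + 10) and a range of 0 to 16937 CPM around a median of 2683 CPM. This ranking was made after the values were seen. Within samples, the median Penk level of members ran from 1143 CPM in sample 7 to 4396 CPM in sample 3, and the cell with the most Penk held 17.8% to 49.3% of its sample's member Penk counts. Next came Arpp21 (SD 2.84), a cyclic AMP-regulated phosphoprotein gene positive in 48 of 92 members, Ppp1r1b (SD 2.80), positive in 56, and Fos (SD 2.64), positive in 48. Calb1, the calbindin gene, was positive in 43, Eepd1 in 55, Chodl in 42, Resp18 in 77 and Ramp1 in 59. Each of these 9 genes was positive in members of all 9 samples.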

How the data were processed

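The authors deposited raw gene counts per cell, with ERCC spike-in rows, for 829 cells in 9 samples; the spike-ins were left out of totals and tests. The submitters' processing notes name the build NCBIM37 and Seurat. The aligner, counting rules, molecular identifiers and strand of counting were not given in the sources used here. Genes that overlap or have near-identical copies may share reads. Sample totals ran from 8522750 to 22730327 gene counts.

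Members and lists were chosen with earlier results of these data known. Cells were classed by the rule given above, with no clustering and no doublet caller. Counts were summed per sample and class (at least 5 cells each) and tested with edgeR 4.0.16 (quasi-likelihood, TMM, filterByExpr, sample as a block; R 4.3.3), with Benjamini-Hochberg adjustment over all genes tested. Positive shares and depth were tested by exact sign-flip permutation in Python 3.11.15 with pandas 2.3.3 and numpy 2.4.6, and counting intervals came from scipy 1.17.1. Figures were drawn with matplotlib 3.10.9. Levels are CPM of summed counts; per-sample log2 ratios use a pseudocount of 1 CPM. Named genes were the 12 (first comparison) or 8 (others) with the largest fold changes in each direction that passed the test, had the same sign in each of the 9 samples and a mean of 10 CPM or more, plus up to 2 passing genes of each list, and Prkcd, Calcrl, Aplp2, Gng7, Penk, Isl1 and Foxp1 in any case; a few genes that the rule named are not reported here. Counting intervals and the floor of 3 counts cover counting error only.

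Alternatives were DESeq2 1.42.0, median-of-ratios scaling, no sample block, no filter on low counts, Prkcd at 3 counts per 10000, the 6 genes under 0.3 per 10000, no cells under 20000 counts, no Mbp-positive cells, thinning to 74000 counts, equal cell numbers, at least 10 cells per class, each sample left out, and, added after the data were seen, counts summed per animal number or per date. On simulated counts for 10417 genes with the sizes of the first comparison, 16% of 2-fold and 58% of 4-fold changes were recovered, with 0 false calls. For the neurons without Prkcd and the 6 genes these were 24% and 56%, with 3 false calls, and for the Cartpt class 23% and 51%, with 4. The simulated counts were drawn independently around a common mean per gene. They held no differences between samples or mice and no single cells that carried most of a gene's counts. The recovery and the false calls therefore do not show the error rate in these data.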

Additional observations from a re-analysis of the deposited data

Results flagged for a closer look

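Each of 146 results was checked over its 9 samples, and 16 had 1 sample standing apart from the other 8 by more than Dixon's critical gap. The 5% rate of that gap holds for independent, normally distributed values. Many of the results share cells or rest on few counts, so 16 of 146 cannot be set against 5%. In the share of positive cells, the difference between members and Prkcd-negative neurons was 39.3 percentage points for Penk in sample 1, against -6.36 to 14.4 in the others. It was 6.06 for Rarb in sample 2, against -8.16 to -2.04, and 22.7 for Rorb in sample 2, against -2.13 to 9.09.

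The other values are log2 ratios of CPM + 1 in single samples. Against Prkcd-negative neurons, 6 genes that were lower in members had 1 sample with a smaller difference or none: Igsf21 at -2.90 in sample 2 (others -5.27 to -4.15), Erbb4 at -0.28 in sample 8 (-5.70 to -3.46), Akap12 at -0.31 in sample 4 (-5.05 to -3.93), Slit2 at -1.12 in sample 3 (-5.53 to -3.35), Crtac1 at -0.97 in sample 5 (-5.04 to -3.30) and Kcng1 at -0.23 in sample 6 (-4.17 to -2.45). Rapgef3 was higher in members of sample 7, at 1.63, and lower in the others (-4.36 to -1.53). Syt4 was lowest in sample 2, at -2.50 (others -1.58 to -0.76). In members, 1 cell held all the counts of Akap12, Slit2, Erbb4, Kcng1 and Igsf21 (Igsf21 had 1 count), 96.9% of those of Crtac1 and 81.8% of those of Rapgef3.

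Against neurons without Prkcd and the 6 genes, Rgs8 was at -3.12 in sample 8 (others -5.82 to -4.83), Grin3a at 2.33 in sample 7 (-7.06 to -3.15), Foxp1 at -5.81 in sample 4 (-3.15 to -0.63) and Npas4 at -0.046 in sample 3 (1.45 to 2.62). Against the Cartpt class, Ncdn was at -0.97 in sample 6 (others -0.56 to -0.22). In members 1 cell held 70.0% of the Rgs8 counts and 64.8% of those of Grin3a. The causes were not tested.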

How the results depend on the processing

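No result that passed in the main or the alternative run changed sign. Every named gene that had passed and could be fitted kept its direction. For positive shares and depth, changes of sign where neither run passed were not counted. The numbers of genes called did depend on the setting. Against Prkcd-negative neurons, where 201 genes were higher and 463 lower in members, DESeq2 called 382 and 1254, leaving out Mbp-positive cells gave 51 and 113, equal cell numbers 74 and 90, and at least 10 cells per class 120 and 195. Against neurons without Prkcd and the 6 genes (131 higher, 199 lower), DESeq2 called 316 and 710, no filter gave 318 lower, no Mbp-positive cells 42 and 45, equal cell numbers 80 and 84, and at least 10 cells 67 and 74. Against the Cartpt class (4 higher, 9 lower), DESeq2 called 111 and 207, no filter 9 and 31, no sample block 7 higher, Prkcd at 3 per 10000 2 and 5, the 6 genes under 0.3 per 10000 2 higher, at least 10 cells 1 and 5, and no Mbp-positive cells 0 and 1 (142 higher at an unadjusted p under 0.05 by edgeR). Leaving out the Mbp-positive cells also dropped 2 samples, and equal numbers kept 92 cells per class, so both fits rest on fewer cells. In fits added after the data were seen, counts summed to 3 animal numbers gave 71 higher and 81 lower, 51 and 46, and 0 and 1 genes in the 3 comparisons, and summed to 3 dates 92 and 94, 50 and 46, and 2 and 4; these rest on 3 blocks. With 1 sample left out, the numbers higher and lower ran from 150 to 187 and 314 to 401, from 100 to 124 and 135 to 169, and from 1 to 6 and 4 to 16. The member share of inhibitory neurons then ran from 10.9% to 12.1% and of Prkcd neurons from 25.7% to 27.7%, the log2 difference in counts from -0.08 to -0.04, the difference in detected genes from -103 to -23.8, and the genes positive more and less often from 2 to 3 and 6 to 8. Of 60 named genes that passed against Prkcd-negative neurons, 25 of 53 fitted passed without Mbp-positive cells and 45 of 50 fitted at 74000 counts. With equal cell numbers 37 could be fitted and 22 passed, and with at least 10 cells per class 39 of 59 fitted passed. The tests pair the classes within each sample; without that block, 243 and 316, 150 and 155, and 7 and 11 genes were called. Genes at a few counts in members are limited by depth: 3 counts equal 0.247 CPM over the 92 cells.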
